A study of Mus musculus with 27 samples.

Results

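The 10 genes described here mark primitive and definitive endoderm: Gata4, Gata6, Sox7, Sox17, Foxa2, Hnf4a, Afp, Ttr, Pdgfra and Dab2. They were taken by gene symbol from the read count tables, which together list 27080 genes. RNA-seq covered 12 libraries of J1 mESCs, a male mouse ESC line grown here without feeder cells. Cells infected with lentivirus and selected with puromycin expressed a non-targeting control shRNA (shCon, called shNT in the study; 3 libraries) or shRNAs against Gas41, a reader of histone acetylation encoded by Yeats4 (shGas41-1, 3 libraries; shGas41-2, 2 libraries). The Gas41 knockdown cells were harvested 8 days after infection. The EB experiment compared undifferentiated mESCs kept with LIF on gelatin (EB day 0, 2 libraries) with embryoid bodies (EBs) grown for 6 days without LIF in ultra-low attachment plates (EB day 6, 2 libraries). The columns of both the EB day 0 and the EB day 6 libraries carry the name of the control shRNA. The 15 ChIP-seq samples of the series were not analysed here.

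Primitive endoderm is the extra-embryonic layer that separates from the epiblast in the blastocyst, and FGF signalling drives Gata6 and then Gata4, Sox17 and Sox7 in its cells. It gives rise to parietal endoderm, which secretes basement membrane, and to visceral endoderm, which takes up and secretes nutrients and carrier proteins. Definitive endoderm forms later, at the primitive streak, and uses Foxa2, Sox17 and Gata factors again, so most of these genes do not tell the layers apart, and several are also active in mesoderm. mESCs with LIF are undifferentiated, and EBs without LIF form derivatives of all germ layers.

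Gas41 mRNA was checked first. The shRNA targets are printed to show what each hairpin was designed against, and both match Yeats4 on chromosome 10 of mm9, minus strand, and no other protein-coding gene.
shGas41-1 target, 3′ UTR, chr10:116652513-116652533: gtagcattccacgacgttaag
shGas41-2 target, coding sequence, chr10:116659320-116659340: atcgttaagccaatcgtttat
None of the 37 protein-coding transcripts of the 10 endoderm genes holds either sequence. Yeats4 stood at 61.2, 53.1 and 50.9 CPM (read counts scaled to a common library size) in the shCon libraries. The shGas41-1 libraries held 3.46, 4.38 and 5.10 CPM and the shGas41-2 libraries 8.80 and 7.95 CPM. Yeats4 was 41.6 and 44.2 CPM at EB day 0 and 47.1 and 52.5 CPM at EB day 6. Both knockdowns (KDs) were therefore visible in every library, and the EB groups overlapped with none of the KD libraries.

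The libraries held between 59224537 and 81524773 counts, so 3 counts, taken as the detection floor, correspond to between 0.0368 and 0.0507 CPM. Averaged over genes with at least 20 counts in a replicate pair, squared deviations were 29.2 to 236 times those of counting noise. The 2 pairs with shGas41-1 replicate 3 were the furthest apart (144 and 236). Highly counted genes raise this average most, so it does not give the spread of the low-count endoderm genes. The labels do not say whether replicates came from separate cultures, so p-values measure the spread between these libraries, which may be technical. All 8 markers of undifferentiated mESCs examined exceeded 1 CPM in every library. Their summed level was 5585 to 6833 CPM in the shCon and KD libraries, 5995 to 6364 CPM at EB day 0 and 1371 to 1733 CPM at EB day 6. The markers did not move alike in the KDs: Esrrb (-1.04 ± 0.24), Klf4 (-1.13 ± 0.19) and Tfcp2l1 (-1.55 ± 0.29) fell with shGas41-1 on the log2 scale, while none of the 8 was called with shGas41-2, where the same 3 had -0.44 ± 0.15, -0.65 ± 0.16 and -0.83 ± 0.22. The part of this in the changes of the endoderm genes was not tested.

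In undifferentiated cells the 10 genes were low or at the floor. Per kilobase of exon, the mean level in shCon was highest for Hnf4a (0.517 ± 0.113 CPM per kb, SD, n = 3), a nuclear receptor of visceral endoderm and liver. Sox7, an HMG-box factor of primitive and parietal endoderm, followed at 0.360 ± 0.0799 and Gata4, a zinc finger factor, at 0.326 ± 0.0115 CPM per kb. Dab2, an endocytic adaptor that positions cells in the visceral endoderm, was next at 0.277 ± 0.0428 CPM per kb. Of these neighbours in the order, only Gata4 and Dab2 had ranges that did not overlap. Foxa2, Pdgfra, Gata6 and Sox17 lay lower, between 0.0574 and 0.0990 CPM per kb in the mean, and each overlapped with its neighbour. Afp had 1 count in 1 shCon library and Ttr had none.

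At EB day 6 the order was different. Gata6 (13.1 ± 8.75 CPM per kb, SD, n = 2), Pdgfra (10.98 ± 9.01), Foxa2 (9.60 ± 0.797) and Gata4 (9.24 ± 7.70) led and overlapped with one another in turn. Sox17 (2.19 ± 2.22) and Dab2 (1.35 ± 0.0101) came after them, and Sox7 (0.0690 ± 0.0127) and Hnf4a (0.0136 ± 0.00220), which were among the first 3 at EB day 0, lay below all 6. Afp was not counted in the EB libraries, and Ttr had a single count.

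**Figure D1:**
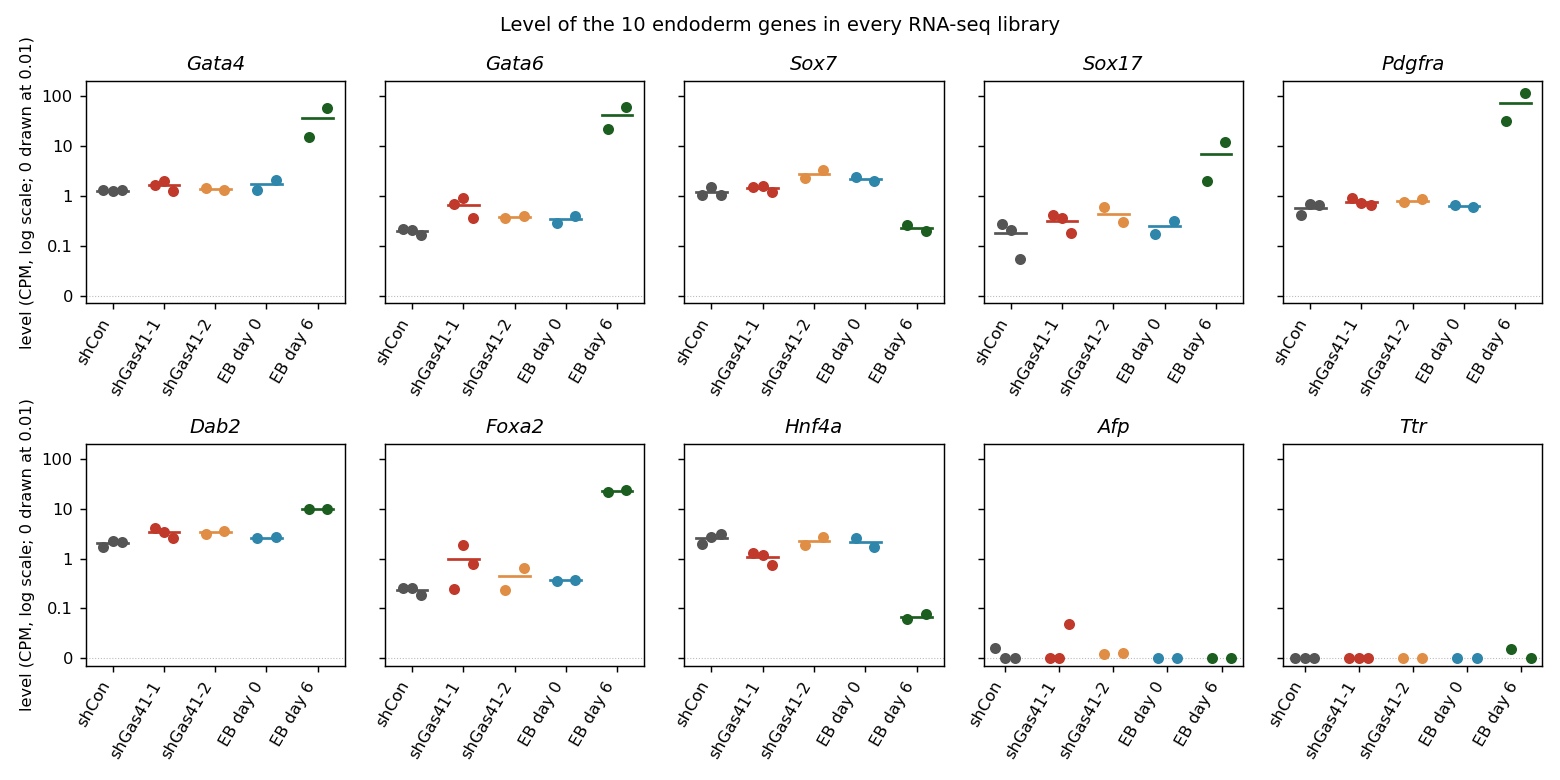
Level of each of the 10 genes in every RNA-seq library, in CPM on a log axis with 0 drawn at the lowest mark. Points are libraries and horizontal bars are group means, which are left out for Afp and Ttr. Gata4, Gata6, Sox17, Pdgfra, Foxa2 and Dab2 are highest at EB day 6, Sox7 and Hnf4a are lowest there, and Afp and Ttr stay at or near 0.

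Promoter windows of 3 of the genes are printed because they stand for the 3 patterns: Foxa2 rose at EB day 6, Hnf4a fell, and Afp was at the floor throughout. They are RefSeq sequences of build GRCm38.p6, mostly before an annotated start and read along the gene's strand, with CpG dinucleotides in capitals.
Foxa2, chr2:148045899-148046198, minus strand: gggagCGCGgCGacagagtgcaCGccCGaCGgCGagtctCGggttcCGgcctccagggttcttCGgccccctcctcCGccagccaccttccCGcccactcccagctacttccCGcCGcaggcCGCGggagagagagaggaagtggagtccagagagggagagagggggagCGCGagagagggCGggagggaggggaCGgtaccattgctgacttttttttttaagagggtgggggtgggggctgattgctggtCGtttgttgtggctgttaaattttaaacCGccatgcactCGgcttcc
Hnf4a, chr2:163506607-163506906, plus strand: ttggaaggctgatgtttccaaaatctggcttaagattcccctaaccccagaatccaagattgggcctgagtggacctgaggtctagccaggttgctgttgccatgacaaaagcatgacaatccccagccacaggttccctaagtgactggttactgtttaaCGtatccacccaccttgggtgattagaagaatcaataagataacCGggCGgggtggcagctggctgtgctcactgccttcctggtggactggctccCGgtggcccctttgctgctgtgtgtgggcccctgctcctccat
Afp, chr5:90490464-90490763, plus strand: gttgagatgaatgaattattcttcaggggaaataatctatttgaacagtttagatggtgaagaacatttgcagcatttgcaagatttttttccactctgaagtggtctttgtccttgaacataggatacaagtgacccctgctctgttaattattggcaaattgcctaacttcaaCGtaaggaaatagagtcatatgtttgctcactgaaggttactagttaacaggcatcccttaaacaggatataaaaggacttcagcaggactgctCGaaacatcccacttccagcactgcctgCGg
The Foxa2 window holds 23 CpGs, the Hnf4a window 4 and the Afp window 3, against a median of 7 over 32851 windows of all genes. Foxa2 has 2 other windows, with 13 and 12 CpGs, and Hnf4a 1 other, with 4. Pdgfra has 5 CpGs in its window, and Dab2 has 2 and 19 in its 2 windows. The counts are per gene and do not show which start was used.

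GATA factors, forkhead factors and Sox factors are all among the 10 genes, so short words that such factors bind were counted in these windows on both strands. The GATA words AGATAA or TGATAA were present in the printed Hnf4a window, in 1 of the other Foxa2 windows and in the Dab2 window with 2 CpGs, and 18.6% of all windows hold one. The forkhead words TGTTTAC or TGTTTGC were present in the Afp window only, against 8.48% of all windows. The Sox words ACAATGG or ACAATAG were in none of these windows, against 5.95% of all. These are matches of letters and not binding sites.

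To ask whether loss of Gas41 moved the endoderm genes, each KD was compared with shCon in edgeR's quasi-likelihood test across all genes. A gene was called when it changed at least 2-fold (1 on the log2 scale) at an adjusted p (FDR) of 0.05 or less. With shGas41-1, 1 of the 8 genes that passed the count filter rose (Gata6) and 1 fell (Hnf4a), where 7.9% of the 18274 genes tested rose and 2.4% fell. Afp and Ttr were under the filter in every comparison. Of the 8, 7 had a positive log2 fold change, and their median was 0.58 against 0.02 for all genes tested. No test was made on the list itself.

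Gata6 is the zinc finger factor that starts the primitive endoderm programme. It is on chromosome 18 of mm9 in 7 exon blocks, and 58 of its exon bases are shared with an antisense transcript. Its level was 0.213, 0.211 and 0.162 CPM in shCon and 0.671, 0.912 and 0.362 CPM with shGas41-1, and all KD libraries lay above all shCon libraries. These levels rest on 12 to 15 reads per shCon library and 22 to 72 per KD library. The log2 fold change was 1.76 ± 0.40 (SE; edgeR, adjusted p = 0.0188), a 3.38-fold rise. At EB day 0 Gata6 had 0.281 and 0.394 CPM, which span shGas41-1 replicate 3. In bulk samples a change in the number of cells of one type and a change in RNA per cell cannot be told apart.

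Hnf4a (chr2:163332544-163398646, plus strand, 14 exon blocks) moved the other way. Its level was 1.98, 2.72 and 3.09 CPM in shCon and 1.32, 1.17 and 0.756 CPM with shGas41-1, so the groups did not overlap. It fell by 1.24 ± 0.27 on the log2 scale (edgeR, adjusted p = 0.0152), or 2.36-fold. Both calls were lost when shCon replicate 2 or 3 was left out (adjusted p = 0.0651 and 0.0743 for Gata6, 0.0597 and 0.0577 for Hnf4a), that of Gata6 also without shGas41-1 replicate 1 (0.0623), and that of Hnf4a also with the replicate number as a block (0.0651). Both held without shGas41-1 replicate 3, the library that stood apart, with log2 fold changes of 2.02 and -1.06.

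Foxa2 (chr2:147868613-147872705, minus strand), a forkhead factor of definitive and anterior visceral endoderm, had the largest fitted log2 fold change of the 8 with shGas41-1 and did not pass. It stood at 0.262, 0.253 and 0.189 CPM in shCon and at 0.250, 1.84 and 0.789 CPM with shGas41-1. The replicates of the KD thus differed 7.35-fold, and replicate 1 lay within the range of shCon. The log2 fold change was 2.06 ± 0.65 with an adjusted p of 0.0578 in edgeR. The call was made by DESeq2 (adjusted p = 0.00773), without the count filter (0.0317), in one fit over all 12 libraries (0.0247) and without shGas41-1 replicate 1 (0.0177). Without shGas41-1 replicate 2, the highest library, the log2 fold change was 1.16 (adjusted p = 0.149 in edgeR), and with a replicate block it was 1.77 (0.119).

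Dab2 (chr15:6249788-6390712, plus strand) passed the FDR but not the fold. It had 1.68, 2.29 and 2.12 CPM in shCon and 4.08, 3.40 and 2.63 CPM with shGas41-1, with no overlap, and a log2 fold change of 0.75 ± 0.22 (edgeR, adjusted p = 0.0477). At EB day 0 Dab2 had 2.60 and 2.68 CPM, above all shCon libraries and spanning shGas41-1 replicate 3. A second gene model named Dab2 shares 18.7% of its exon bases and is not listed in the tables, so reads there may have been left uncounted. Gata6 and Dab2 were the 2 of the 8 with every shGas41-1 library above every shCon library, against 20.9% of all genes tested.

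The other genes did not pass with shGas41-1. Sox17 (chr1:4481009-4486494, minus strand), the HMG-box factor of both endoderm layers, had 0.278, 0.211 and 0.0540 CPM in shCon and 0.408, 0.367 and 0.181 CPM with shGas41-1, where the groups overlapped (log2 fold change 0.87 ± 0.56). Pdgfra, the PDGF receptor on the surface of primitive endoderm cells (chr5:75548316-75594229, plus strand), had 0.409, 0.676 and 0.661 CPM in shCon and 0.908, 0.735 and 0.658 CPM with shGas41-1, which overlapped (log2 fold change 0.41 ± 0.29). Gata4 (chr14:63817759-63890529, minus strand) had a log2 fold change of 0.38 ± 0.23 and Sox7 (chr14:64562511-64569569, plus strand) 0.27 ± 0.24. The adjusted p-values of these 4 genes lay between 0.273 and 0.461 in edgeR.

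With shGas41-2, 1 of the 8 tested genes rose (Sox7) and none fell, where 3.96% of 18405 genes rose and 0.869% fell. The comparison used the same shCon libraries. Again 7 of the 8 had a positive log2 fold change, with a median of 0.82 against -0.01 for all genes tested. Sox7 stood at 1.05, 1.49 and 1.03 CPM in shCon and at 2.25 and 3.31 CPM with shGas41-2, and both KD libraries lay above all shCon libraries. The log2 fold change was 1.23 ± 0.26 (edgeR, adjusted p = 0.0292), a 2.35-fold rise. The call was lost without shCon replicate 3 (0.0507), shGas41-2 replicate 1 (0.0587) or shGas41-2 replicate 2 (0.217).

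The level of Sox7 also differed between the 2 sets of undifferentiated control libraries. At EB day 0 it was 2.38 and 2.03 CPM, above all shCon libraries and overlapping with shGas41-2. The log2 difference of EB day 0 from shCon was 0.90 ± 0.24 (edgeR, adjusted p = 0.0777). None of the 8 genes was called between these control sets in edgeR, where 0.569% of 18095 genes were. DESeq2 called none of the 4 to which it gave an adjusted p, and Sox7 passed its FDR (0.0291) but not the fold. The experiment and the group cannot be told apart in that comparison.

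Gata6 had 0.361 and 0.388 CPM with shGas41-2, above all shCon libraries, and a log2 fold change of 0.94 ± 0.36 that did not pass (edgeR, adjusted p = 0.134). Its 2 EB day 0 libraries had 0.281 and 0.394 CPM, which span the shGas41-2 values. Dab2 had 3.13 and 3.58 CPM and a log2 fold change of 0.73 ± 0.20 (adjusted p = 0.0570 in edgeR), close in size to that with shGas41-1. Sox17 had 0.584 and 0.297 CPM and a log2 fold change of 1.31 ± 0.60 (adjusted p = 0.199 in edgeR), on 23 to 47 reads per library.

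Foxa2 had 0.236 and 0.646 CPM with shGas41-2, and replicate 1 lay within the range of shCon with either shRNA. Its log2 fold change was 0.92 ± 0.49, and 0.019 without shGas41-2 replicate 2. That of Pdgfra was 0.47 ± 0.31, that of Gata4 0.09 ± 0.21 and that of Hnf4a -0.18 ± 0.26. Adjusted p-values of these 4 genes lay between 0.259 and 0.820 in edgeR. Gata6, Sox7, Sox17, Pdgfra and Dab2 had both shGas41-2 libraries above all shCon libraries, 5 of the 8, where 23.2% of all genes tested did.

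Different genes passed with each shRNA, so the shRNAs were also compared with each other over their 5 libraries. None of the 8 genes differed at the thresholds in edgeR, nor did any of 19009 genes (0%), of which 1111 had an unadjusted p under 0.05, and DESeq2 called 62 genes but none of the 8. For Hnf4a, the gene that fell with shGas41-1, the level with shGas41-1 was lower by a log2 difference of -1.06 ± 0.30 (unadjusted p = 0.0076, adjusted p = 0.666, edgeR). For Sox7, the gene that rose with shGas41-2, the difference was -0.97 ± 0.26 (unadjusted p = 0.0058, adjusted p = 0.662, edgeR). In both genes the libraries of the 2 shRNAs did not overlap. How common such separation was over all genes tested was not counted, so no difference is read from it. Gata6 differed by 0.81 ± 0.43 and Foxa2 by 1.14 ± 0.77, toward shGas41-1. With the replicate number as a block, Gata6 (1.08, adjusted p = 0.0341 in edgeR) and Foxa2 (1.06, adjusted p = 0.0477 in edgeR) were called. Foxa2 also depended on single libraries, with a log2 difference of 0.21 without shGas41-1 replicate 2 and 2.04 without shGas41-2 replicate 2. The standard errors of the fit without the block leave room for differences of over 2-fold in Foxa2, Gata6, Hnf4a, Sox7 and Sox17.

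**Figure D2:**
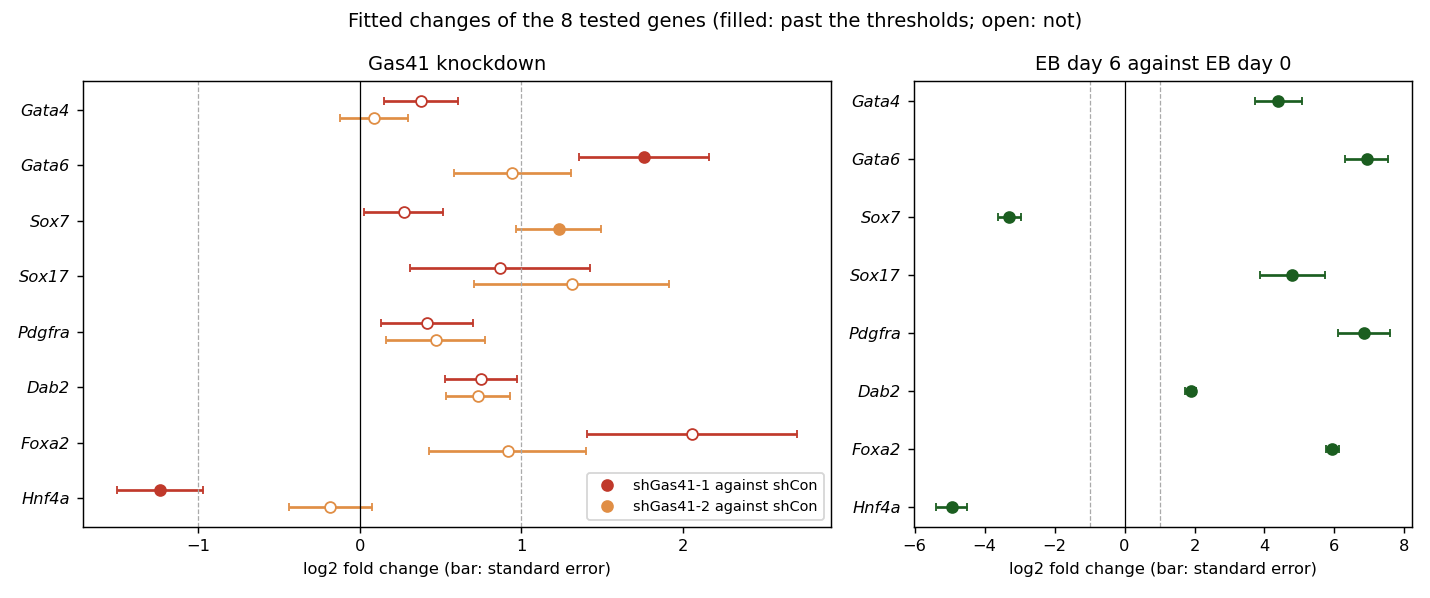
Fitted log2 fold change of the 8 tested genes against shCon for both shRNAs (left) and at EB day 6 against EB day 0 (right), with bars of 1 standard error and dashed lines at a 2-fold change. Filled points passed the thresholds: Gata6 and Hnf4a with shGas41-1, Sox7 with shGas41-2, and all 8 genes at EB day 6.

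In the EB comparison all 8 tested genes were called in edgeR's test over 4 libraries. The 6 genes Gata4, Gata6, Sox17, Foxa2, Pdgfra and Dab2 rose and the 2 genes Sox7 and Hnf4a fell, where 16.6% of 18287 genes rose and 14.7% fell. Every EB day 6 library was above every EB day 0 library for the 6 genes, against 42.5% of all genes. The median log2 fold change of the 8 was 4.59 against 0.00 for all genes tested. Afp, the fetal carrier protein of visceral endoderm and liver, and Ttr, the transthyretin of the same cells, did not appear with the others.

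Among the transcription factors, Gata6 rose from 0.281 and 0.394 CPM at EB day 0 to 22.0 and 61.5 CPM at EB day 6, a log2 fold change of 6.93 ± 0.62 (edgeR, adjusted p = 1.8e-04). Foxa2 rose from 0.348 and 0.379 to 21.4 and 24.1 CPM, by 5.94 ± 0.18 on the log2 scale (edgeR, adjusted p = 4.8e-06), with the closest replicates among these factors. Gata4 rose from 1.30 and 2.09 to 14.8 and 57.4 CPM, by 4.40 ± 0.67 (edgeR, adjusted p = 0.0017). Per kilobase of exon, Gata4 was thus the highest of these 3 at EB day 0 (0.433 CPM per kb) and overlapped with the other two at EB day 6.

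Sox17 and Sox7, related HMG-box factors, moved in opposite directions. Sox17 rose from 0.174 and 0.318 to 1.95 and 11.9 CPM, by 4.79 ± 0.93 (edgeR, adjusted p = 0.00484). Sox7 fell from 2.38 and 2.03 to 0.257 and 0.198 CPM, by 3.29 ± 0.33 (edgeR, adjusted p = 2.7e-04). Sox7, a gene paired with Sox17 and Gata4 in primitive endoderm, was therefore at its lowest where those genes were at their highest.

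Hnf4a fell from 2.54 and 1.68 to 0.0605 and 0.0761 CPM, which is 4 and 5 reads, by 4.94 ± 0.44 (edgeR, adjusted p = 1.8e-04). Afp and Ttr were at the floor in all groups, also in shCon and at EB day 0, where Hnf4a was higher. Afp had no read in any EB library, and at the depth of these libraries 3 counts would be between 0.0420 and 0.0471 CPM. In the KD experiment Afp had at most 3 reads in a library (0.0493 CPM, shGas41-1 replicate 3), and Ttr had none.

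At the cell surface and below it, Pdgfra rose from 0.656 and 0.606 to 31.1 and 117 CPM, by 6.84 ± 0.74 (edgeR, adjusted p = 4.1e-04). Dab2 rose from 2.60 and 2.68 to 9.89 and 10.0 CPM, by 1.89 ± 0.16 (edgeR, adjusted p = 1.4e-04). Dab2 had the smallest change of the 8 and the closest replicates. Without EB day 0 replicate 3, Gata4, Sox17 and Pdgfra did not pass (adjusted p = 0.0825, 0.121 and 0.0598, edgeR), and without EB day 0 replicate 2 Sox17 did not (0.0635). In these fits the lone EB day 0 library is assumed to vary like the EB day 6 libraries.

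The 2 EB day 6 libraries did not hold the same amount of these mRNAs. Sox17 was 5.96-fold, Gata4 3.86-fold, Pdgfra 3.76-fold and Gata6 2.80-fold higher in replicate 3, in a ratio of counts scaled by library, while Foxa2 (1.12) and Dab2 (1.01) were alike. Of the 6 genes at 1 CPM or more, 4 were thus at least 2-fold higher in replicate 3, compared with 1.43% of 14117 tested genes at that level, whose median ratio was 1.01. Of 62 other endoderm list genes at 1 CPM or more, 9 were at least 2-fold higher in replicate 3 and 1, the endocytic receptor Lrp2, at least 2-fold lower. The higher ones included Cxcr4 (6.43-fold), the secreted antagonists Cer1 (4.45-fold), Frzb (3.35-fold) and Dkk1 (3.03-fold), and Lhx1 (3.76-fold). Of the mesoderm markers, Mesp1 (22.2 and 88.3 CPM) and Tbx6 (1.47 and 8.89 CPM) differed most between replicates 2 and 3. The more abundant ones differed less. Mixl1 was 1.89-fold and Eomes 1.21-fold higher in replicate 3, and T was at 415 to 519 CPM over the 2 libraries. Without replicate 3 the log2 fold changes were 3.13 for Gata4, 6.02 for Gata6, 2.98 for Sox17 and 5.60 for Pdgfra, and without replicate 2 they were 5.07 for Gata4, 5.58 for Sox17 and 7.50 for Pdgfra. All of these were called in edgeR.

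**Figure D3:**
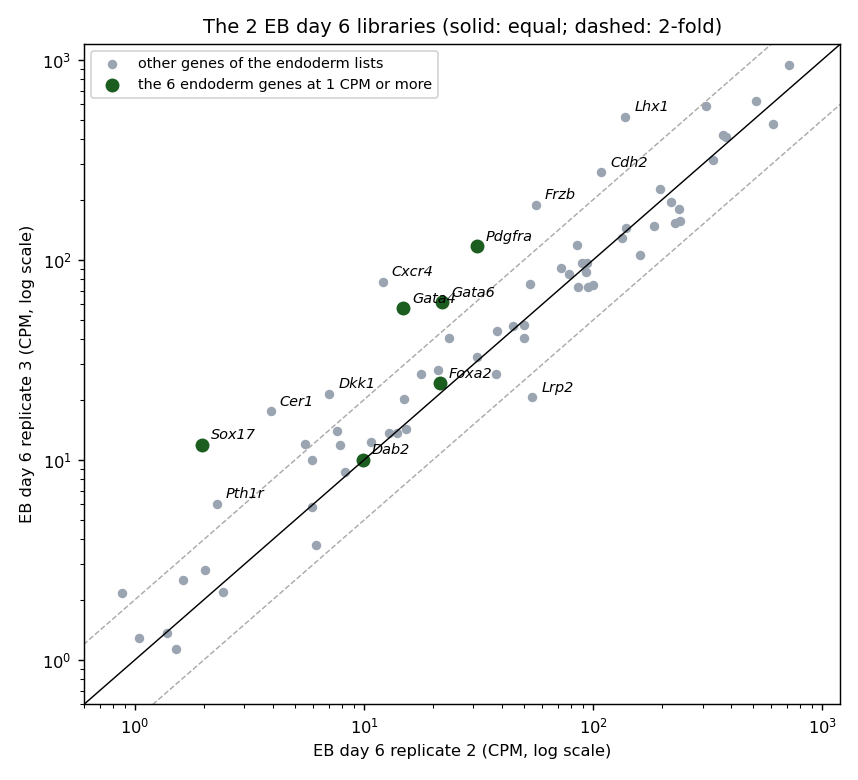
Level in EB day 6 replicate 3 against replicate 2 (CPM, both axes log) for the 6 endoderm genes at 1 CPM or more and for 62 other genes of the endoderm lists. The solid line marks equal levels and the dashed lines a 2-fold difference. Sox17, Gata4, Pdgfra and Gata6 lie above the upper dashed line, and Foxa2 and Dab2 lie on the solid line.

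Markers of other cell types moved with the EB groups. The summed level of 5 mesoderm and streak genes (T, Mixl1, Eomes, Mesp1 and Tbx6) was 7.34 to 8.17 CPM at EB day 0 and 1262 to 1822 CPM at EB day 6, where all 5 exceeded 1 CPM in both libraries. That of 4 primed epiblast genes was 94.8 to 109 CPM and then 1075 to 1365 CPM, and that of 6 trophoblast genes 7.77 to 8.26 CPM and then 535 to 653 CPM, of which Eomes, also on the mesoderm list, made up 514 to 621 CPM. Of 6 fibroblast genes the sum was 5.96 to 8.65 CPM and then 10.45 to 10.96 CPM. Thy1 was its largest part, with means of 6.49 CPM at EB day 0 and 5.37 CPM at EB day 6. The mean of Col1a1 went from 0.629 to 2.66 CPM and that of Col1a2 from 0.181 to 2.32 CPM. Postn, Dcn and Lum stayed low, with means of 0.0152, 0.273 and 0.0681 CPM at EB day 6. The part of these cell types in the levels of Gata4, Gata6, Sox17, Foxa2 and Pdgfra, which mesoderm and streak cells can also express, was not tested.

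In the KD libraries the same sums were lower than at EB day 6. Mesoderm and streak genes summed to 8.59 to 13.4 CPM in shCon, 4.54 to 7.63 CPM with shGas41-1 and 7.49 to 7.60 CPM with shGas41-2. Trophoblast genes summed to 8.50 to 13.1, 7.81 to 13.3 and 10.0 to 10.8 CPM, primed epiblast genes to 71.9 to 84.5, 65.2 to 104 and 81.7 to 84.5 CPM, and fibroblast genes to 7.67 to 13.6, 4.42 to 6.10 and 9.34 to 10.1 CPM. Dnmt3b and Otx2 made up nearly all of the primed epiblast sum. The mean of Otx2 was lower with both shRNAs, and those of Dnmt3b, Pou3f1 and Fgf5 were higher. Fgf5 had means of 0.114, 0.471 and 0.281 CPM. Thy1 was most of the fibroblast sum, with means of 9.67, 4.43 and 8.87 CPM. The mean of Col1a1 was also lower with both shRNAs, and that of Col1a2 was higher. Within the trophoblast sum, the mean of Eomes was 8.82 CPM in shCon, 4.34 CPM with shGas41-1 and 5.54 CPM with shGas41-2. That of Krt7 was also lower in the KDs, at 0.324, 0.229 and 0.203 CPM in the same order of groups. The means of Gata3, Cdx2, Ascl2 and Elf5 were higher with both shRNAs. Gata3 rose from 0.0810 to 0.180 CPM in shCon to 1.41 to 3.20 CPM with shGas41-1 and 1.06 to 1.21 CPM with shGas41-2 (log2 fold changes 4.30 ± 0.43 and 3.26 ± 0.37). Cdx2 was called with shGas41-1. With shGas41-2 Cdx2 was at 0.671 to 0.802 CPM, against 0.0675 to 0.343 CPM in shCon. That log2 fold change of 1.79 ± 0.52 did not pass (adjusted p = 0.0681, edgeR). Of the 6 trophoblast genes, 2 exceeded 1 CPM in all shCon libraries, 4 with shGas41-1 and 3 with shGas41-2. Whether these cell types have a part in the changes of Gata6, Hnf4a or Sox7 was not tested.

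The genes whose levels over the 12 libraries ran closest to each of the 8 were found by the root mean square difference of log2(CPM + 1) values, each gene centred on its own mean. A similar order of group means follows from this choice, and the added 1 shrinks differences among levels under 1 CPM. Closest to Pdgfra was Mesp1, a factor of early mesoderm (difference 0.0953), followed by Gata6 and Rspo3. Gata6 was closest to Rspo3 (0.204), Pdgfra and Pcdh8, and so Gata6 and Pdgfra were among each other's 3 nearest genes. Gata4 was closest to Adra2b, Hoxb1 and Kcnc1, Sox17 to Prdm6, Lmo1 and Vax1, and Foxa2 to Sertad4, Pxdn and Gpm6b.

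Dab2 was closest to Lmo4 (0.105), Fam160a1 and Ptger4, whose means were also highest at EB day 6. Sox7, which fell there, was closest to Pdgfa (0.183), which encodes a ligand of Pdgfra and had mean levels of 34.1 CPM in shCon, 45.2 CPM with shGas41-2 and 13.2 CPM at EB day 6. Hnf4a was closest to Arhgef10l (0.158), Sh3tc1 and Prr13, each with its lowest mean at EB day 6 and its next lowest with shGas41-1.

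Other endoderm genes were taken from lists and described in the same fits. Over all genes tested, 7.9% rose and 2.4% fell with shGas41-1 (median log2 fold change 0.02). These shares were 3.96% and 0.869% with shGas41-2 (median -0.01), and 16.6% and 14.7% at EB day 6 (median -0.003). The lists are small, and none was tested against these shares. Of 22 genes of primitive and parietal endoderm, 21 were tested with shGas41-1, of which 3 rose and none fell (median log2 fold change 0.65), and all 22 with shGas41-2, of which 3 rose and none fell (median 0.50). Fgfr2, an FGF receptor of primitive endoderm, was called with both. It rose from a mean of 0.840 ± 0.0262 CPM in shCon to 4.44 ± 1.69 CPM with shGas41-1 and 1.77 ± 0.417 CPM with shGas41-2. The log2 fold changes were 2.42 ± 0.29 and 1.08 ± 0.24. At EB day 0 Fgfr2 was at 1.496 ± 0.0805 CPM. Plat and Cubn rose with shGas41-1, and the matrix protein Sparc (1.10 ± 0.15) and the hormone receptor Pth1r (1.27 ± 0.32) with shGas41-2.

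At EB day 6, 11 of 19 tested genes of that list rose and 4 fell (median 1.53), so that Gata6, Gata4 and Pdgfra rose beside genes that went both ways. The activin antagonist Fst (5.95 ± 0.11), Pth1r (3.79 ± 0.56) and Krt19 (3.51 ± 0.43) rose most on the log2 scale. The basement membrane genes Nid1 (-4.53 ± 0.10), Lama1 (-2.22 ± 0.26) and Lamc1 (-1.38 ± 0.14) fell.

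Of 22 genes for secreted and uptake proteins of visceral endoderm and liver, the class to which Afp and Ttr belong, the count filter removed 10 in the shGas41-1 comparison, 11 in that of shGas41-2 and 13 in that of the EBs. With shGas41-1, Apoa2 (1.92 ± 0.42) and Cubn (1.32 ± 0.38) rose and Fgg (-1.54 ± 0.39) and Trf (-1.47 ± 0.21), the transferrin gene, fell among 12 tested. Apoa2 was near the floor in shCon, at 0.0540 to 0.0818 CPM and 13 reads in total. It had 52 reads with shGas41-1 and passed the count filter through those libraries. None of 11 passed with shGas41-2. At EB day 6 the zinc transporter Slc39a8 (6.56 ± 0.26) rose, and Trf (-2.37 ± 0.38) and Apob (-2.0 ± 0.40) fell like Hnf4a, among 9 tested.

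Of 20 other transcription factors of endoderm, 4 of 17 tested rose and 2 fell with shGas41-1 (median -0.28), and none of 15 was called with shGas41-2 (median -0.23). Those that rose included Cdx2 (2.51 ± 0.45), a trophoblast and hindgut factor, and Foxa1 (1.77 ± 0.44), the close relative of Foxa2. Lhx1 was called too but had 0 to 0.0704 CPM in shCon and 0.211 to 0.230 CPM with shGas41-1. Foxa3 (-1.34 ± 0.30) and Eomes (-1.0 ± 0.27) fell. At EB day 6, 8 of 18 rose and 3 fell. Lhx1 went from 0 and 0.0669 CPM to 138 and 518 CPM, and Mixl1 rose by 8.93 ± 0.40 on the log2 scale.

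Of 18 surface and secreted genes of definitive and anterior visceral endoderm, Dkk1 rose with both shRNAs (1.97 ± 0.36 and 1.90 ± 0.43), and it was the single one of 13 tested that passed with shGas41-1. Sfrp5 (1.37 ± 0.17) also rose with shGas41-2. At EB day 6, 8 of 15 rose and 2 fell. In replicates 2 and 3, Frzb was at 56.2 and 189 CPM, Cer1 at 3.90 and 17.5 and Dkk1 at 7.05 and 21.4. They were in the same order as Gata6 and Sox17, and so were Cxcr4 and Cdh2. Lefty1, Cldn6 and Epcam also rose but were lower in replicate 3, at 0.81, 0.85 and 0.75 of replicate 2. Sfrp5 (-3.38 ± 0.31) and Kit (-1.56 ± 0.11) fell.

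Of 17 genes of the FGF and PDGF inputs to primitive endoderm, 2 rose with shGas41-1 (Fgfr2 and Fgf5), 1 with shGas41-2 (Fgfr2) and none fell, where 7.9% and 3.96% of all tested genes rose. Fgf5 is also on the primed epiblast list. It was at 0.0270 to 0.183 CPM in shCon, the lowest library under the floor, and at 0.303 to 0.684 CPM with shGas41-1. At EB day 6, 6 rose and 5 fell. Fgf4 (-3.85 ± 0.08), the epiblast ligand of this pathway, fell, and so did the Pdgfra ligand gene Pdgfc (-2.37 ± 0.24) while Pdgfra itself rose. Fgf8 (8.82 ± 0.14), a streak ligand, and the feedback phosphatase Dusp6 (2.13 ± 0.12) rose.

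**Figure D4:**
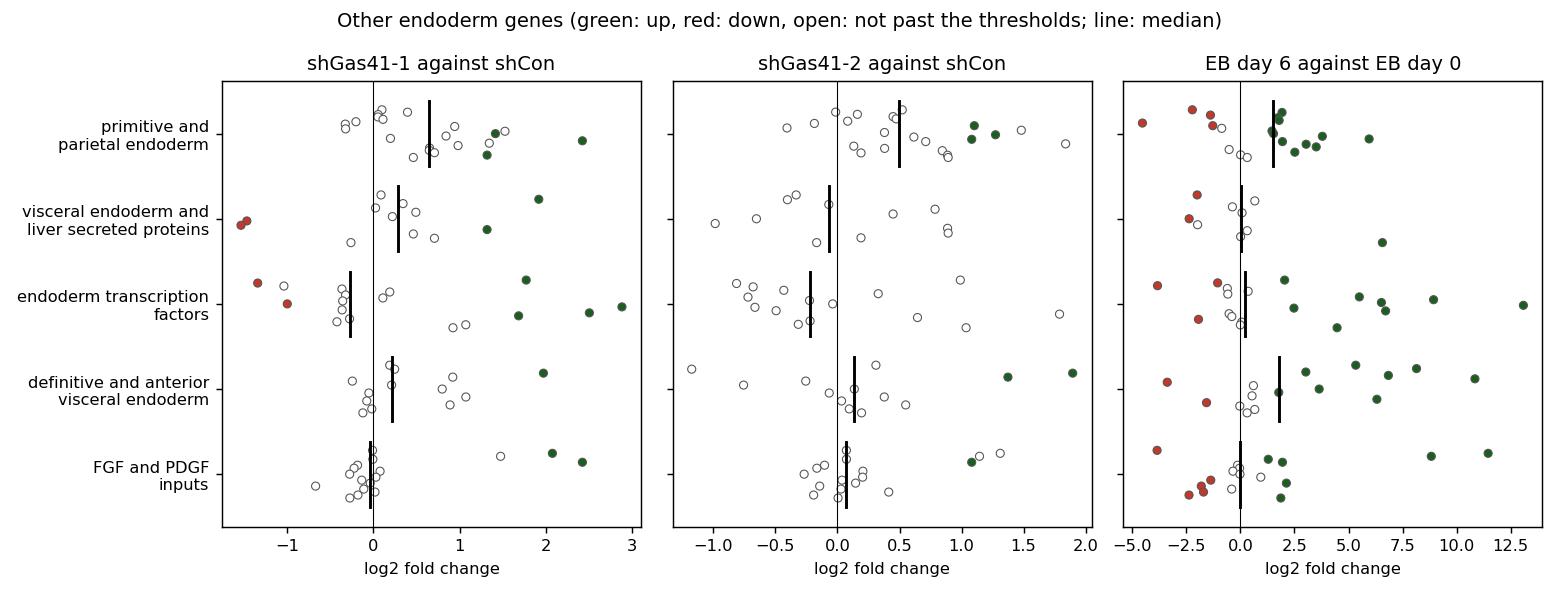
Log2 fold changes of the tested genes of 5 endoderm lists, with a panel for each shRNA and a panel for EB day 6. Each point is a gene (green rose, red fell, open did not pass) and each vertical line is the median of a list. With the shRNAs most points are open and lie within 1 of 0, and at EB day 6 the lists hold genes called in both directions.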

How the data were processed

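RNA-seq reads were aligned by the authors with TopHat2 (2.0.10) against mm9, and HTSeq gave the deposited counts per gene, whole numbers that had not been scaled. Whether counting used strand is not given in the sources used here. The tables also hold deposited log2 fold changes and p-values (raw and adjusted) from edgeR comparisons made by the authors, which were left aside. Genes absent from a table were taken as 0 counts, because none of the 1657 genes listed in one KD table only had a shCon count. Genes passing filterByExpr (at least 10 counts, total of at least 15) were scaled by TMM and tested here with edgeR 4.0.16 under R 4.3.3 (quasi-likelihood, Benjamini-Hochberg over all genes), in a script tested on simulated data. CPM values use TMM over 12 libraries, and floors cover counting error only. Exon lengths and mm9 positions came from GENCODE. The 10 genes, the other lists, the alternatives and the rule for naming genes were chosen with earlier results of these data known. Genes named are all 10, at most the 3 largest called changes in each direction per list and comparison, and for each of the 8 tested genes the 3 nearest profiles, leaving out Gm and Rik names, and 1 gene that the rule names is not reported here. Cell type markers named singly and genes beside the EB day 6 replicate ratios were chosen after their values were seen. Alternatives were no count filter, library size scaling, DESeq2 1.42.0, one fit over 12 libraries, halved counts (in case both mates of a fragment were counted), a replicate block and each library left out in turn.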

Additional observations from a re-analysis of the deposited data

How the results depend on the processing

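Among the 8 tested genes, the number called with shGas41-1 was 2, was 3 without the count filter, with DESeq2 and in one fit over 12 libraries (Foxa2 added), was 1 with a replicate block (Hnf4a, adjusted p = 0.0651 in edgeR) and ranged from 0 to 2 with single libraries left out. With shGas41-2 it was 1 and ranged from 0 to 1, at EB day 6 it was 8 and ranged from 5 to 8, and between the shRNAs it was 0 and became 2 with the block (Gata6 1.08, adjusted p = 0.0341, and Foxa2 1.06, adjusted p = 0.0477, in edgeR). The block changed no other call of the 8. No label ties the replicate numbers to a shared batch or culture: deviations of same-numbered libraries correlated at -0.157, 0.193 and -0.648 between shGas41-1 and shCon, at 0.518 and 0.455 for shGas41-2, at 0.222 and 0.501 between the shRNAs and at 0.101 for the EB groups. Over all genes the block gave 1019 rises and 302 falls with shGas41-1 instead of 1444 and 438, and 1122 and 212 with shGas41-2 instead of 728 and 160, and 213 genes higher and 50 lower with shGas41-1 than with shGas41-2 instead of 0. Leaving out single libraries gave 905 to 1510 rises with shGas41-1 and 269 to 1174 with shGas41-2, and 1 to 210 genes higher at EB day 0 than in shCon instead of 83. In fits with 1 library in a group, that library is assumed to vary like the others. Some log2 fold changes that were not called turned sign when single libraries were left out, and their ranges were -0.47 to 0.054 for Hnf4a with shGas41-2, -0.84 to 0.12 for Sox17, -0.20 to 0.060 for Pdgfra and -0.15 to 0.17 for Dab2 between the shRNAs, and -0.047 to 0.89 for Sox17 and -0.070 to 0.24 for Pdgfra between the control sets. With the replicate block Pdgfra turned sign between the shRNAs (0.036) and between the control sets (-0.071). Scaled by library size, Dab2 moved to 2.75 CPM at EB day 0 and 9.62 CPM at EB day 6. With halved counts Foxa2 and Sox17 were under the filter in the KD comparisons. The cause of these shifts was not tested.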
